A study of Mus musculus with 24 samples.

Results

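Long intergenic noncoding RNAs (lincRNAs) are transcribed from their own genes between protein-coding genes, are often spliced and polyadenylated, and are not translated into a known protein. The members described here were the genes of GENCODE M21 type lincRNA with a mean of at least 5 FPKM (fragments scaled to exon length and library size) in 1 or more of 7 groups of mouse lacrimal gland (LG) and lacrimal gland stem cell (LGSC) libraries, without the imprinted genes H19 and Meg3. Of 5009 lincRNA genes listed, 125 were members (127 before H19 and Meg3 were set aside), and 1967 were listed at 0 in all 20 libraries. Under the same level 5965 of 21819 protein-coding genes would have been chosen. Since the group means chose the members, these means are given as a description with no test, and tests are printed only for members that reached 5 FPKM in a group outside the comparison.

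All samples came from C57BL/6 mice. LGSCs were taken from the glands of mice aged 6 to 8 weeks and grown as spheres in Matrigel, in a serum-free DMEM/F12 medium with N2, B27, EGF, FGF10, Wnt3A and the ROCK inhibitor Y-27632. The LGSC groups were passage 2 spheres at culture day 5 (2 libraries) and at days 7, 10 and 14 (3 each), and the gland groups were adult LG and LG of embryos aged E17.5 or E19.5 (3 of each), where E gives the embryonic day. A single library of passage 10 spheres at day 7 was made against another gene list and is given by value only. Whether replicates were separate cultures or animals was not stated in the sources used here, so the p-values measure the spread between these libraries.

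Nuclear lincRNAs such as Neat1, the scaffold of the paraspeckle, and Xist, which coats the inactive X chromosome, act where they are made, while Norad (2900097C17Rik in the files) binds Pumilio proteins in the cytoplasm. Others are hosts: small nucleolar RNAs (snoRNAs), which guide the chemical modification of ribosomal RNA, are cut from the introns of Snhg genes, and microRNAs from the hairpins of genes such as Mir17hg. Many lincRNAs are found in few tissues or stages, and a gland is a mixture of secretory, ductal, myoepithelial, mesenchymal, blood vessel and immune cells.

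The RNAs carried by the host members are shown because the members are named for them or were described by them, and since libraries of poly-T captured RNA measure the host transcript and not the small RNA. GENCODE M21 placed a snoRNA or small Cajal body RNA gene on the strand of 6 members (4.8%, against 0.5% of the 4882 other lincRNA genes) and a microRNA gene on that of 6 (4.8% against 1.0%). The main mature microRNAs of the 3 hosts Mir17hg, Gm27028 and 4833445I07Rik are given from RefSeq, 5′ to 3′, with the seed (bases 2 to 8) in capitals.
mmu-miR-17-5p (Mir17hg): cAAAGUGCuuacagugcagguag
mmu-miR-20a-5p (Mir17hg): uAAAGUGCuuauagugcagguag
mmu-miR-18a-5p (Mir17hg): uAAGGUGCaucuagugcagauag
mmu-miR-19a-3p (Mir17hg): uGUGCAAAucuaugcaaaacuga
mmu-miR-19b-3p (Mir17hg): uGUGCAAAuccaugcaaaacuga
mmu-miR-92a-3p (Mir17hg): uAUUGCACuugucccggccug
mmu-miR-30c-5p (Gm27028): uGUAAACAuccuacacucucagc
mmu-miR-191-5p (4833445I07Rik): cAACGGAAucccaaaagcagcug
mmu-miR-425-5p (4833445I07Rik): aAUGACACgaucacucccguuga
Within Mir17hg, miR-17-5p and miR-20a-5p had the same seed, AAAGUGC, and miR-19a-3p and miR-19b-3p had GUGCAAA. The seed of miR-30c-5p, GUAAACA, was found in none of the Mir17hg sequences printed.

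A box C/D snoRNA is known by a C box near its start and a D box near its end. The box C/D snoRNAs of Snhg18 and Snhg12 are given as DNA from GRCm38, because both hosts were higher in embryonic than in adult LG, with a TGATGA and the last CTGA in capitals.
Snord123 (Snhg18): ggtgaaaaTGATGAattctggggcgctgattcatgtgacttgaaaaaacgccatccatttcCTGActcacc
Snord99 (Snhg12): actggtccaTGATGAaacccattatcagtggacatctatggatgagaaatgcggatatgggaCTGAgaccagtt
Snord123 is 71 bases long and Snord99 is 74.

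The promoters of BC049987, the member with the highest adult LG level after Gm10076, and of Snhg18, which stood high in embryonic LG, are shown as a contrast of the 2 gland stages. Each runs over 250 bases before and 50 bases from the RefSeq start, 5′ to 3′ on the gene's strand in GRCm38.p6. Capitals mark the TATA box letters TATAAA, the CAAT box letters CCAAT and the GC box letters GGGCGG, searched on both strands.
BC049987, chr9:44672211-44672510, minus strand: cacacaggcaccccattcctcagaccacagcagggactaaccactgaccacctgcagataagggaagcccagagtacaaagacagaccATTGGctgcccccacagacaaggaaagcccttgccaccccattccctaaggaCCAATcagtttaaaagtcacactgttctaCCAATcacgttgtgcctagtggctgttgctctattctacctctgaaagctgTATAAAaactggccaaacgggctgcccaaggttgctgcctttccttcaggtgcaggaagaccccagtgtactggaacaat
Snhg18, chr15:32244613-32244912, minus strand: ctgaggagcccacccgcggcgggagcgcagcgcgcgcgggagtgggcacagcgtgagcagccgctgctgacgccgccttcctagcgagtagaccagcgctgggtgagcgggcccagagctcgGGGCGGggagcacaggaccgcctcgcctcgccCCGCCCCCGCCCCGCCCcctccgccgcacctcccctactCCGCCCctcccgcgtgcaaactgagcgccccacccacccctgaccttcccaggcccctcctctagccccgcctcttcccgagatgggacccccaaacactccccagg
The BC049987 window held a TATAAA at -30, CCAAT at -162, -110 and -81 and 2 CG pairs. The Snhg18 window held 5 GGGCGG, some of which overlap the next, no TATAAA and 31 CG pairs. Over the 71 promoters that RefSeq gave for 63 members, TATAAA was found in 16.9%, CCAAT in 38.0% and GGGCGG in 39.4%, beside 13.6%, 37.4% and 35.7% of all 32851 promoters in the table, so the members' shares lay near those of all genes.

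Recovered reads numbered 6434281 to 9257025 in the 20 libraries. The 10 top genes held 60.4% and 59.6% of the reads in adult LG replicates 1 and 2 (31.3% in replicate 3, 5.4% to 8.1% elsewhere). Recovered reads divided by the scale of the deposited FPKM gave 2.667 and 2.567 there, against 0.832 to 1.129 in the other 18 libraries. Every level in adult LG replicates 1 and 2 was therefore set higher than its share of the reads, so most counts and calls that involve adult LG are given with those after rescaling to the recovered reads. Among the markers, 6 mesenchyme genes summed to 4199 to 5124 FPKM in embryonic LG, 142.8 to 278.6 in adult LG and at most 1.582 in spheres, and 6 leukocyte genes to 701.6 to 1404 in adult LG, 93.53 to 146.8 in embryonic LG and at most 3.205 in spheres. Epcam and Krt8 were listed at 0 in all 20 libraries and at 261.3 and 413.8 FPKM in the passage 10 library. A gene listed at 0 can therefore not be read as absent. Krt5 was at 0.3945 to 5.52 FPKM and Krt14 at 3.354 to 17.82 in passage 2 spheres, against 4931 and 7065 at passage 10. The paper reports high expression of both in spheres of different passages. Low values above 0 may thus be too low as well. How far this affects the classes below with a limit of under 1 FPKM was not tested. In bulk RNA, fewer cells of a type and less RNA per cell cannot be told apart.

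Most members reached 5 FPKM in few groups. Of the 125, 74 reached 5 FPKM in 1 group alone (59.2%, beside 14.3% of the protein-coding genes at the same level) and 14 in all 7 groups (11.2%, beside 49.7%). The protein-coding genes were not matched for level, here or in the classes below. Only 43 members reached 10 FPKM in a group, and a gene near 5 FPKM can pass it in 1 group while present in all. One such member was 4833445I07Rik, with group means of 2.816 to 5.482 FPKM. Adult LG alone accounted for 50 members (40.0%, beside 8.4%), the embryonic groups alone for 28 (22.4%, beside 11.9%) and the LGSC days alone for 17 (13.6%, beside 6.7%). The highest of the 7 means was found in adult LG for 67 members, at E19.5 for 22, at E17.5 for 14 and at an LGSC day for the other 22, of which 10 were at day 5. After rescaling, 51 of the 67 still had their highest mean in adult LG and 35 of the 67 reached 5 FPKM in no group. The adult share rested on the scale of adult LG replicates 1 and 2, since 15 of the 50 adult-only members still reached 5 FPKM, while 46 of the 48 members under 5 FPKM in adult LG did.

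**Figure D1:**
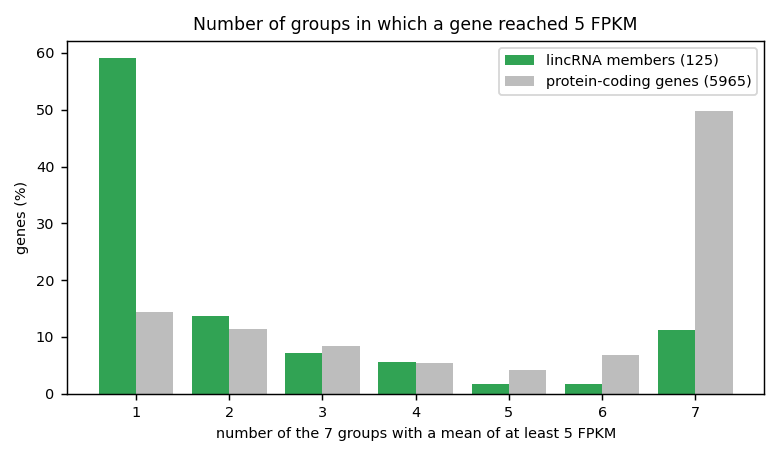
Share of genes (y axis, percent) by the number of the 7 groups in which the mean reached 5 FPKM (x axis), for the 125 lincRNA members and for the 5965 protein-coding genes chosen by the same level. The members peak at 1 group (59.2%) and the protein-coding genes at 7 groups (49.7%).

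The 3 members nearest to the level were AC158605.1 (5.004 FPKM), Gm5113 (5.037) and Gm26507 (5.042), and the lincRNA genes just outside were A330035P11Rik (4.872), Gm43091 (4.764) and 5430431A17Rik (4.752). Of these 6 genes, 5 had their highest mean in adult LG and Gm26507 at E17.5. A gene on either side of 5 FPKM thus differed little from its neighbours on the other.

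Of the 10 members with the highest mean over the groups, BC049987 alone was not at 5 FPKM or more in every group. Epb41l4aos, which holds the snoRNA gene Gm23639, was listed at 97.12 to 138.2 FPKM over the 11 sphere libraries, at 82.91, 75.55 and 113.1 in adult LG, at 141.4, 148.4 and 142.7 at E17.5 and at 196, 251.4 and 287.5 at E19.5. The adult values were the lowest of the gland and the E19.5 values the highest, with no overlap between the 3 gland groups. Norad (2900097C17Rik, chr2:156388065-156392979, minus strand), a single-exon RNA that guards chromosome number, was among the steadiest, at 95.92 to 113.7 FPKM in the spheres, 84.24 to 92.99 at E17.5, 68.23 to 80.98 at E19.5 and 152.2, 125.6 and 67.92 in adult LG. Oip5os1 (1700020I14Rik) varied even less between groups, with means from 23.95 ± 1.52 (SD, n = 3) at day 7 to 29.28 ± 3.09 (n = 2) at day 5.

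Gm10076 had the highest mean over the groups, and its libraries disagreed. It was listed at 124.3, 119.6 and 645.8 FPKM at day 7 and at 935.9, 203.7 and 129.4 in adult LG, so that 1 library of each group set the mean. RefSeq types Gm10076, a single-exon gene of 384 bases, as a pseudogene, so reads shared with a parent gene would make its level uncertain. RefSeq types 5 further members as protein-coding (Tmem250-ps, 1810058I24Rik, BC037156, Gm6712 and Lsmem2) and 4632415L05Rik as a transcribed pseudogene, while 72 members were lncRNA and 46 were not matched.

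The Snhg hosts did not share a pattern. Snhg18 (chr15:32240565-32244662, minus strand) was listed at 98.08, 83.09 and 83.6 FPKM at E17.5, at 90.05, 86.75 and 109.7 at E19.5, at 5.858, 9.552 and 17.56 in adult LG and at 9.122 to 27.45 in the spheres. Every embryonic library was above every adult and sphere library. Snhg20 (chr11:117076008-117078955, plus strand) stood the other way, at 99.9, 92.18 and 97.16 in adult LG, 17.33, 17.96 and 10.21 at E17.5, 9.874, 7.959 and 9.591 at E19.5 and 19.9 to 78.38 in the spheres.

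Snhg12 (chr4:132308623-132311024, plus strand), which carries 5 snoRNA genes, was listed at 52.09, 61.96 and 43.12 FPKM at E17.5, 50.08, 55.34 and 56.91 at E19.5 and 23.2, 26.77 and 35.48 in adult LG, with no overlap between embryonic and adult libraries. Snhg10 (chr12:105030617-105032279, minus strand) was low, with means of 2.70 to 9.58 FPKM that rested on 6 to 50 reads a library. Its E19.5 values of 9.08, 10.51 and 9.155 lay above those of every other library. Of the 23 genes on the list of snoRNA host names, 5 were members, 4 were not found in the files, and the other 14, all but Snhg6, have another GENCODE M21 type. None of the 18 genes on the list of developmental RNAs, Hotair and Rmst among them, was a member. Most of these have another GENCODE M21 type and could not be members at any level. Dnm3os, typed as antisense, had means of 5.185 FPKM at E17.5 and 8.118 at E19.5.

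**Figure D2:**
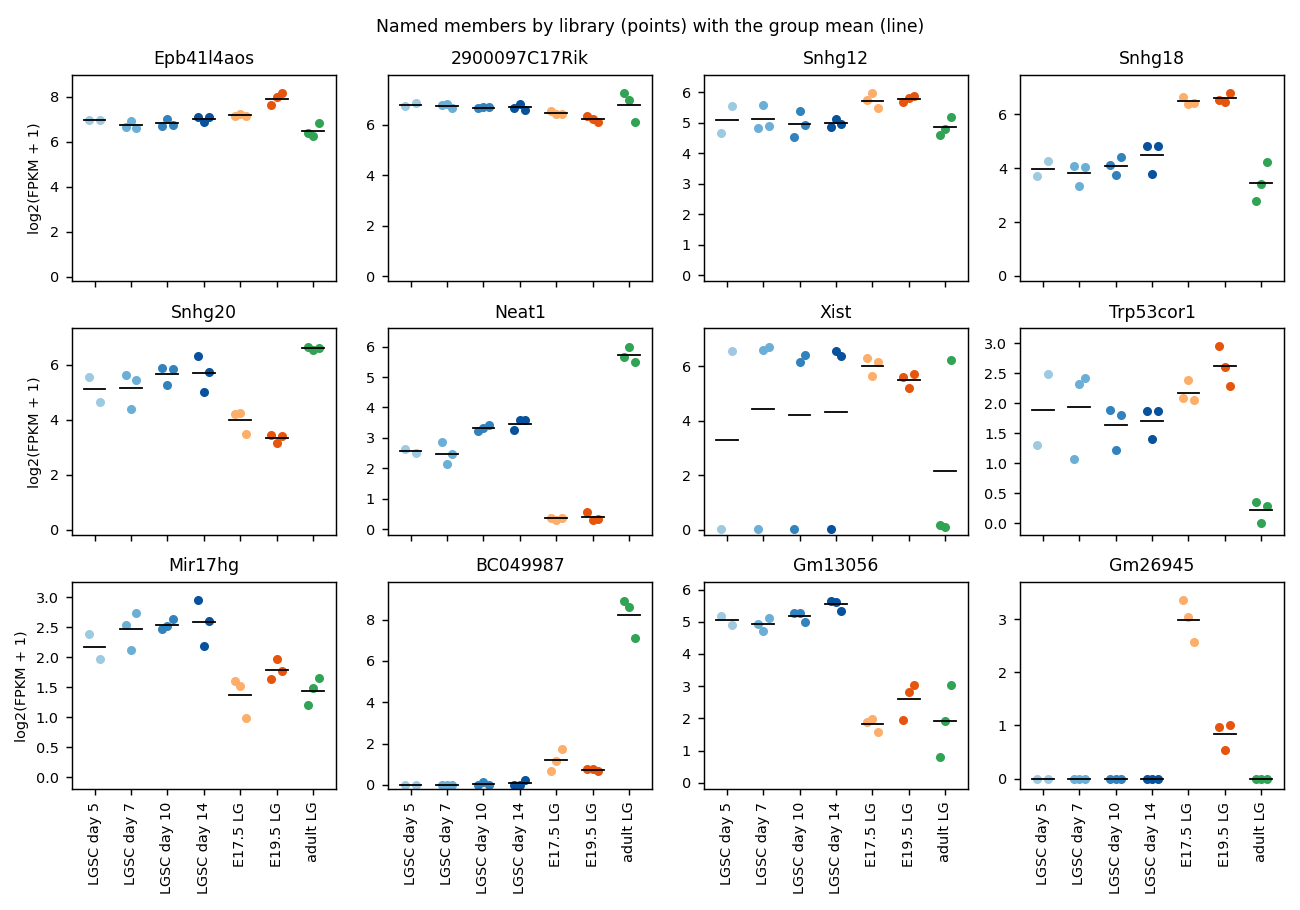
FPKM (y axis, log2(FPKM + 1) scale) of 12 members in each of the 20 libraries by group (x axis), with a line at the group mean of the log2 values. Snhg18, Snhg12 and Epb41l4aos are higher in embryonic than in adult LG, Snhg20 and Neat1 are lower, and BC049987 is high in adult LG alone.

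Some lincRNAs were well expressed in adult LG and little in the other groups. Under a rule of at least 5 FPKM in adult LG and under 1 at both embryonic ages there were 26 adult members (20.8%, beside 3.0% of protein-coding genes), and under a rule of at least 5 in a gland group and under 1 at all 4 LGSC days there were 48 gland-restricted members (38.4%, beside 12.8%). After rescaling, 7 of the 26 and 23 of the 48 still met these rules, and 19 and 25 reached 5 FPKM in no group. BC049987 (chr9:44670453-44672238, minus strand) was the most abundant, at 479.8, 391.1 and 136.3 FPKM in adult LG, 0.6188, 1.213 and 2.321 at E17.5, 0.7079, 0.6885 and 0.6136 at E19.5 and at most 0.1655 in any sphere library. Every adult value was above every value of the other groups and rested on 1511 to 1803 reads a library.

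Gm47902 was listed at 73.27, 62.62 and 2.222 FPKM in adult LG, Gm35572 at 41.63, 31.13 and 7.265, and 4933409D19Rik at 30.88, 38.29 and 6.4 with 0 in every other library of the 20. In each of these, adult LG replicate 3 was far below the other two. The same held for Lncbate1, named for a regulator of brown fat, at 15.83, 9.323 and 0.8074. Of the 67 members with their highest mean in adult LG, replicate 3 was the lowest of the 3 libraries in 54 and under 0.5 of both others in 30, with a median ratio of 0.435 to the mean of replicates 1 and 2. After rescaling it was the lowest in 24, the highest in 32 and under 0.5 of both others in 10, with a median ratio of 1.037. These figures are over the 67 members and do not describe each gene named above. Replicate 3 was also the adult library of high Xist, at 74.41 FPKM against 0.1156 and 0.07039 in replicates 1 and 2. The part of this difference in the levels of these members was not tested.

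AW112010, a lincRNA of activated immune cells, went the other way within adult LG, at 11.84, 16.39 and 36.44 FPKM, with 4.307, 4.189 and 5.297 at E19.5, 1.502, 0.1347 and 0.6492 at E17.5 and at most 0.4378 in the spheres. The leukocyte markers had the same order of groups, and their part in the AW112010 level was not tested. Of the 7 genes on the immune list it was the only member, and Mir142hg, host of a microRNA of blood cells, had means of 3.895 FPKM in adult LG, 1.806 at E19.5 and at most 0.14 in spheres.

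Embryonic LG held 15 members at 5 FPKM or more at E17.5 or E19.5 and under 1 in adult LG (12.0%, beside 6.1% of protein-coding genes), and all 15 met the rule after rescaling too. Gm29683 (chr7:70178868-70337852, minus strand), whose nearest protein-coding gene is Nr2f2, a nuclear receptor of mesenchyme and vessels, was listed at 16.3, 14.21 and 10.43 FPKM at E17.5, 9.782, 6.819 and 8.004 at E19.5, 0.2479, 0.4716 and 0.8234 in adult LG and at most 0.2294 in spheres. Gm27000, which holds a copy of Mir1906, was at 10.69, 8.749 and 10.09 at E17.5 and 7.607, 7.001 and 5.449 at E19.5 against 0, 0.3746 and 0.4672 in adult LG. The mesenchyme markers were likewise lower in adult than in embryonic LG, and their part in these levels was not tested.

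Gm26945 (chr12:109640341-109642351, plus strand) lies in the imprinted cluster that also holds Meg3. Its nearest protein-coding gene is Rtl1, 40011 bases away on the opposite strand. Gm26945 was listed at 9.267, 7.223 and 4.972 FPKM at E17.5, at 0.9668, 0.4425 and 1.014 at E19.5 and at 0 in all adult LG and sphere libraries. Its E17.5 libraries were all above the E19.5 ones. Among the imprinted genes of the list none was a member, but those found in the files, all but Mirg, have another GENCODE M21 type and could not be members. Of these, Peg13 had a mean of 33.32 FPKM in adult LG and Rian one of 6.887 at E17.5. Mirg, of the same cluster as Gm26945, had means of 4.336 at E17.5, 3.066 at E19.5 and 0.01199 in adult LG.

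The embryonic groups were compared with adult LG to ask which lincRNAs change between the developing and the mature gland. Members eligible for the test reached 5 FPKM in a group outside the comparison, and those chosen through the other embryonic age lean towards higher embryonic values by that choice, as did 16 of the 26 higher calls at E17.5 and 16 of the 28 at E19.5 below. At E17.5, 68 were eligible, 64 passed the filter of a mean of 0.5 FPKM, 26 were higher and 15 lower than in adult LG at an adjusted p under 0.05 (limma), together 64.1%. Over all genes tested 54.0% were called, 29.1% higher and 24.9% lower, and over protein-coding genes of the same eligibility 61.5%, 40.6% higher and 20.9% lower, so the members' share was near the background. Their median log2 difference was 0.48, beside 0.05 over all genes, and 42 had no overlap between the groups (59.5% of all genes).

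At E19.5, against the same adult libraries, 62 of 66 eligible members were tested, 28 were higher and 13 lower, together 66.1% (54.2% of all genes, of which 30.3% higher and 23.9% lower, and 62.2% of the protein-coding genes, 45.1% higher and 17.2% lower). The median was 0.71, beside 0.09 over all genes, and 42 members had no overlap (58.8% of all genes). Rescaling to the recovered reads moved the all-gene median from 0.05 to 0.64 (E17.5) and from 0.09 to 0.58 (E19.5). At E17.5 the calls became 36 higher and 6 lower, beside 8450 higher and 1913 lower of all 17410 genes. At E19.5 they became 34 higher and 8 lower, beside 8054 and 1842 of all genes, so all genes moved the same way. All 26 and all 28 higher calls remained, but 6 of the 15 and 8 of the 13 lower calls. Limma-voom on the recovered reads, with totals adjusted for composition, gave 24 higher and 16 lower at E17.5. At E19.5 it gave 25 higher and 16 lower, and the calls that it lost at either age were all higher ones.

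Higher in embryonic LG were Gm29683, with a log2 difference of 3.27 (SE 0.22, adjusted p = 7.04e-06) at E17.5 and 2.61 at E19.5, and 3110099E03Rik, with 3.25 (SE 0.24, adjusted p = 1.43e-05) at E17.5 and 3.37 at E19.5. Per library, 3110099E03Rik was listed at 22.2, 20.22 and 28.19 FPKM at E17.5, 19.52, 25.47 and 32.61 at E19.5 and 1.412, 1.075 and 2.323 in adult LG. Snhg18 was higher by 3.01 (SE 0.32, adjusted p = 8.87e-05) at E17.5 and 3.12 (adjusted p = 8.32e-05) at E19.5. In each of the 3, no embryonic library overlapped an adult one.

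Gm6213 was higher by 3.20 at E17.5 (7.857, 9.595 and 10.58 FPKM against 0, 0 and 0.411 in adult LG) and Gm27000 by 3.10. At E19.5 Gm26802, a neighbour of Fosb, was higher by 2.92 (9.015, 10.79 and 8.144 FPKM against 0.3867, 0 and 0.795). Smaller rises were those of the snoRNA hosts Snhg12, by 0.86 (adjusted p = 0.00549) at E17.5 and 0.92 (adjusted p = 0.00409) at E19.5, and Epb41l4aos, by 0.69 (adjusted p = 0.0178) and 1.43 (adjusted p = 0.000438), while Snhg10 had 0.80 (adjusted p = 0.00931) at E19.5 and -0.04 (adjusted p = 0.881) at E17.5. The Snhg12 calls at both ages and the E17.5 call of Epb41l4aos were lost with adult LG replicates 1 and 2 left out together. By limma-voom on the recovered reads the Snhg10 call and the E17.5 call of Epb41l4aos were lost, and the latter also without E17.5 replicate 2 or adult LG replicate 2.

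Trp53cor1 (lincRNA-p21, chr17:29057430-29079179, minus strand), a p53 target that lies upstream of Cdkn1a, was listed at 3.261, 4.212 and 3.129 FPKM at E17.5 against 0.2805, 0 and 0.2218 in adult LG, a log2 difference of 1.96 (SE 0.20, adjusted p = 7.35e-05). Its E19.5 values of 6.732, 5.08 and 3.881 chose it as a member.

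Neat1 (chr19:5824708-5845478, minus strand) showed the largest difference of the members tested. It was listed at 49.03, 62.97 and 44.49 FPKM in adult LG, at 0.3032, 0.2398 and 0.2888 at E17.5 and at 0.4625, 0.241 and 0.2577 at E19.5. The log2 difference to adult LG was -5.37 (SE 0.16, adjusted p = 1.66e-07) at E17.5 and -5.32 (adjusted p = 1.93e-07) at E19.5, and it remained called after rescaling (-4.41 at E17.5). The embryonic levels were not counts near 0: they rested on 42 to 84 reads a library, over an annotated exon of 20771 bases.

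Snhg20 was lower in embryonic LG, with log2 differences of -2.63 (SE 0.21, adjusted p = 1.97e-05) at E17.5 and -3.27 (adjusted p = 7.27e-06) at E19.5. Gm27028, the host of Mir30c-2, was listed at 27.01, 23.72 and 15.44 FPKM in adult LG, 1.611, 1.82 and 1.253 at E17.5 and 2.006, 3.066 and 1.597 at E19.5, with differences of -3.14 (adjusted p = 1.67e-05) and -2.83 (adjusted p = 3.27e-05), although its adult values rested on 26 to 47 reads a library. 1810044D09Rik was lower too, with -2.66 (adjusted p = 0.000442) and -2.35. These 3 and Neat1 were among the 6 lower calls at E17.5 that remained after rescaling. Gm26917 had -2.33 (adjusted p = 0.00163) at E17.5 and lost that call after rescaling.

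**Figure D3:**
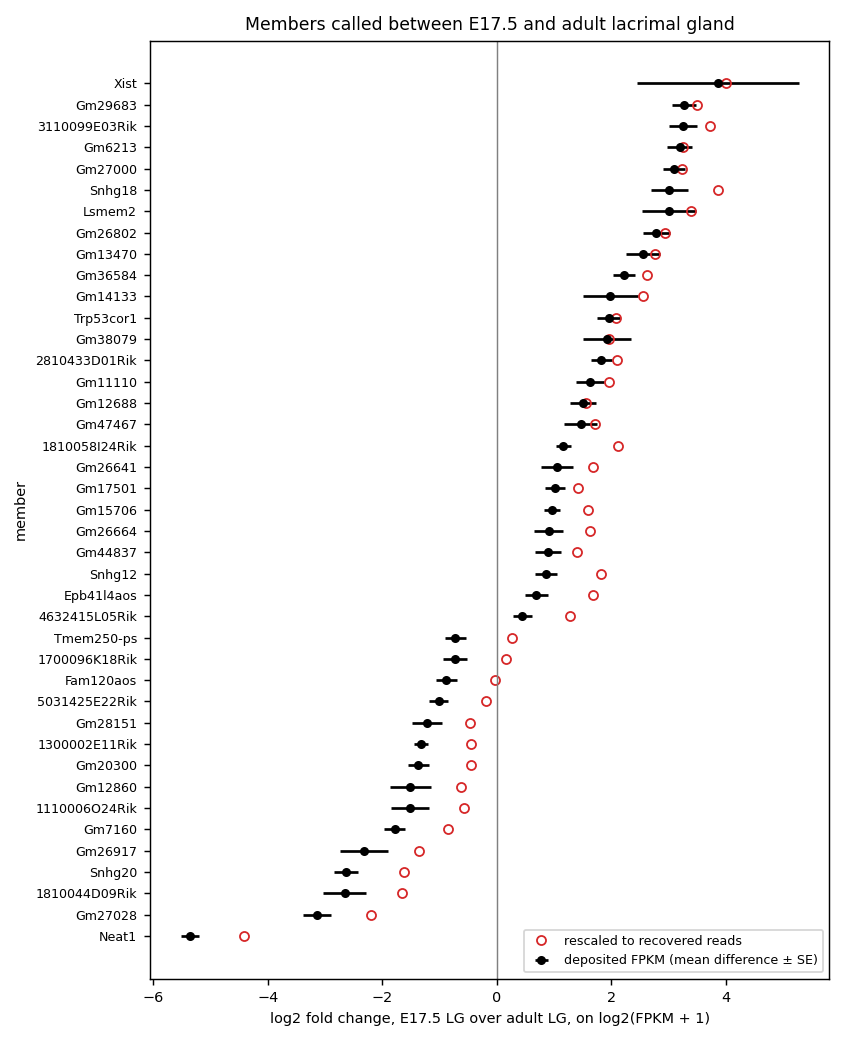
Log2 difference of FPKM + 1 between E17.5 and adult LG (x axis) for the 41 eligible members that were called, ordered by size (y axis). Black points with bars are the deposited values ± SE and open red points the values after rescaling to recovered reads, which lie further towards higher in embryonic LG, and 9 of the 15 lower calls were lost by it.

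Some lower calls changed direction with the scale. Tmem250-ps was listed at 37.17, 35.64 and 37.35 FPKM at E17.5 against 68.45, 73.8 and 45.89 in adult LG, a log2 difference of -0.73 that became 0.27 after rescaling, and at E19.5 the difference of -0.74 became 0.15. 1700096K18Rik went from -0.73 to 0.16 at E17.5. In day 7 spheres against adult LG, 1300002E11Rik went from -0.89 to 0.09 and 5031425E22Rik from -0.69 to 0.23. Xist (chrX:103460366-103483254, minus strand) was called higher at E17.5 (3.86, SE 1.42, adjusted p = 0.0465), but its values of 77.24, 48.59 and 69.37 overlapped those of adult LG, 0.1156, 0.07039 and 74.41. The difference was -0.22 without adult LG replicates 1 and 2.

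Xist split the replicates within the groups. It was at most 0.02522 FPKM in LGSC replicate 1 at all 4 days and at 70.37 to 103.9 in replicates 2 and 3. The Y-linked gene Eif2s3y was at 1.47 to 2.499 FPKM in LGSC replicate 1, 1.295 and 1.592 in adult LG replicates 1 and 2, and 0 in the libraries of high Xist among the spheres and adult LG. All 6 embryonic libraries held both Xist, at 35.32 to 77.24, and Eif2s3y, at 0.1544 to 0.4673. No sphere or adult library held both above 1 FPKM, and sex is not given in the labels used here.

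Between E17.5 and E19.5 few members could be told apart. Of 97 eligible members 93 were tested and 2 were called, both higher at E19.5 (2.15%, beside 1.74% of all genes, of which 1.11% higher and 0.624% lower, and 1.73% of eligible protein-coding genes, 1.59% higher and 0.136% lower), a share near the background. At an unadjusted p under 0.05 there were 12 members (15.3% of all genes), and 28 had no overlap (35.1% of all genes). Gm28286 was listed at 0.4387, 1.239 and 1.066 FPKM at E17.5, 6.245, 3.606 and 4.35 at E19.5 and 15.56, 15.07 and 20.58 in adult LG, a log2 difference of 1.58 (SE 0.24, adjusted p = 0.0224) between the ages. Gm38910 was at 0.6826, 1.314 and 2.042, then 4.392, 3.953 and 3.488, and at 10.67, 12.5 and 9.534 in adult LG, a difference of 1.11 (SE 0.22, adjusted p = 0.0483). Both stood at E19.5 between E17.5 and adult LG with no overlap, and both calls were lost after rescaling to recovered reads (0 called) and with 1 of several libraries left out (0 to 7 called over the 9 fits).

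By level 5 members had an embryonic mean of at least 5 FPKM that was at least 2 times the other embryonic mean, and these means chose them. Gm26945 and Gm44948 were higher at E17.5, and Gm47467, Gm12688 and Gm13056 at E19.5. Gm12688, a neighbour of the neural crest factor gene Foxd3, was listed at 1.65, 2.516 and 2.852 FPKM at E17.5 and 8.158, 5.871 and 6.545 at E19.5. The groups of Gm12688 did not overlap, and those of Gm44948 (10.35, 7.66 and 1.678 against 3.07, 0.7465 and 2.566) did.

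Spheres held 4 members at 5 FPKM or more that were under 1 in all gland groups (3.2%, beside 1.9% of protein-coding genes). Of these, Gm48866, Gm24474 and Gm32369 lie together at chr12:70650182-70693780, and Gm24474 spans both of the others. For Gm48866 the day 5 libraries read 3.428 and 8.597 FPKM, those of day 7 read 2.204, 11.56 and 2.604, those of day 10 read 2.636, 5.678 and 1.685, and those of day 14 read 1.309, 5.897 and 0.7016, while adult LG was listed at 0. Replicate 2 was the highest at each day, and the same was found for Gm24474 and Gm32369. LGSC replicate 2 also stood apart in the epithelial keratin gene Krt18, at 130.1 to 176 FPKM against 688.9 to 1734 in replicates 1 and 3. The part of this culture in the group means was not tested.

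Gm11216, the other sphere-restricted member, was listed at 2.082 to 7.662 FPKM in spheres and at 0 in all 9 gland libraries. Gm13056 (chr4:141278439-141279794, plus strand) was the strongest sphere-enriched member by level, at 25.39 to 49.54 FPKM in spheres, 0.735, 2.796 and 7.207 in adult LG, 2.735, 2.943 and 1.994 at E17.5 and 2.839, 6.113 and 7.231 at E19.5. No sphere library overlapped a gland library.

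Spheres at day 7 were compared with adult LG, the organ they were grown from, which shares its 3 libraries with the embryonic comparisons above. A member chosen through another LGSC day leans towards higher sphere values by that choice, as 9 of the 16 higher calls were. Of 75 eligible members 65 were tested, 16 were higher and 15 lower in spheres, together 47.7% (35.2% of all genes, of which 14.2% higher and 21.1% lower, and 43.0% of the protein-coding genes, 24.0% higher and 18.9% lower). The groups did not overlap for 36 members (52.4% of all genes), and the median log2 difference was 0.06, beside -0.08 over all genes. By limma-voom on the recovered reads 15 were higher and 14 lower. Rescaling moved the median of all genes to 0.60 and the calls to 22 higher and 3 lower. Of all 16460 genes 5490 were then higher and 1754 lower. All 16 higher and 3 of 15 lower calls of members were kept by rescaling. The count was 19 without adult LG replicate 2, 36 without replicate 3, and 11 without adult LG replicates 1 and 2.

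Gm13056 was higher in day 7 spheres by 3.01 (SE 0.54, adjusted p = 0.00721). Gm38079, at 6.312, 13.29 and 2.9 FPKM at day 7 and 0 in adult LG, had a fitted difference of 2.89 (adjusted p = 0.00437). It has 154 exon bases, so few reads lie behind its values and a 0 can hide a low level. Gm13470, at 5.387, 11.24 and 7.957 against 0, 0.7492 and 0.3114, had a difference of 2.75 (adjusted p = 0.00159). Gm48866 and Gm32369 of the chromosome 12 cluster were higher by 2.39 (adjusted p = 0.0139) and 2.24 (adjusted p = 0.0247). These 2 and Gm38079 reached 5 FPKM outside the comparison only at other LGSC days, and since they were listed at 0 in adult LG their differences depend on the pseudocount of 1 FPKM. The Gm32369 call was lost without any 1 of the adult libraries.

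Mir17hg (chr14:115042879-115046727, plus strand), the host of the miR-17 to miR-92a cluster printed above and a target of MYC, was listed at 4.765, 3.363 and 5.621 FPKM at day 7 and 1.29, 1.784 and 2.151 in adult LG. It was higher in spheres by 1.02 (SE 0.24, adjusted p = 0.019), but it was eligible only through its day 14 mean, and the call was lost without day 7 replicate 1 or 3 or adult LG replicate 1 or 2. By level it lay between 2.919 and 6.727 in all sphere libraries and between 0.9896 and 2.894 in the gland, where E19.5 replicate 2 reached the lowest sphere value to within 0.1 FPKM. The host of Mir191 and Mir425, 4833445I07Rik, did not pass the test in any of the 3 comparisons with adult LG for which it was eligible, and its means ran from 2.82 to 5.48 FPKM. Trp53cor1 was higher in day 7 spheres by 1.72 (1.096, 3.98 and 4.344 FPKM, adjusted p = 0.0157), a call lost without day 7 replicate 2 or 3 or adult LG replicate 2.

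Neat1, at 6.286, 3.38 and 4.483 FPKM in day 7 spheres, was lower than in adult LG, with a log2 difference of -3.23 (SE 0.27, adjusted p = 0.000475), and its values stood between those of adult and embryonic LG. 1810044D09Rik had -2.58 (adjusted p = 0.00948) and Gm27028 -2.37 (adjusted p = 0.00591), and these 3 were the lower calls kept after rescaling. Gm12860 (-2.82, adjusted p = 0.0124), Fam120aos (-1.94, adjusted p = 0.00457) and Snhg20 (-1.45, adjusted p = 0.0203) were lower as deposited and lost the call.

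Over the culture days Neat1 and BC037156 rose. Of 108 eligible members 67 passed the filter in the 11 sphere libraries, and these 2 were called, both upwards (2.99%, beside 2.14% of all genes, of which 0.648% upwards and 1.5% downwards, and 4.13% of eligible protein-coding genes, 0.534% upwards and 3.59% downwards), again near the background. At an unadjusted p under 0.05 there were 8 members, beside 2965 of all 15584 genes. Neat1 began with 5.237 and 4.699 FPKM (day 5), went through 6.286, 3.38 and 4.483 (day 7) and 8.319, 8.995 and 9.823 (day 10), and ended with 8.471, 10.9 and 11.13 (day 14), a slope of 0.12 log2 units per day (SE 0.03, adjusted p = 0.0419). The libraries of days 10 and 14 lay above all of days 5 and 7.

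BC037156 (chr5:87908779-87914171, plus strand), in the neighbourhood of the casein gene Csn3, gave 1.367 and 0 FPKM on day 5, then 2.009, 0.2974 and 2.337 (day 7), 14.72, 3.624 and 16.13 (day 10) and 10.44, 8.101 and 51.21 (day 14), a slope of 0.41 per day (SE 0.08, adjusted p = 0.0353). It was also at 0, 109.3 and 0 in adult LG, where 1 library gave the whole mean. The libraries of the same replicate number deviated together across the culture days, which the main slope left out of account. With the replicate as a block in limma Gm12860 was called too (0.25 per day, adjusted p = 0.00303), beside BC037156 (0.38) and Neat1 (0.12). By limma-voom with the block 11 members were called, 10 upwards and 1 downwards. The share of all genes called by the blocked fits was not worked out. The values of Gm12860 ran from 0, 2.334 and 2.709 at day 7 to 3.64, 8.09 and 15.34 at day 14. In the main fit, Neat1 and BC037156 were both lost without replicate 3 of day 10 or day 14, or either day 5 library. The same held for replicate 2 or 3 of day 7. Neat1 alone was lost without replicate 1 of day 10 or replicate 2 of day 14.

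**Figure D4:**
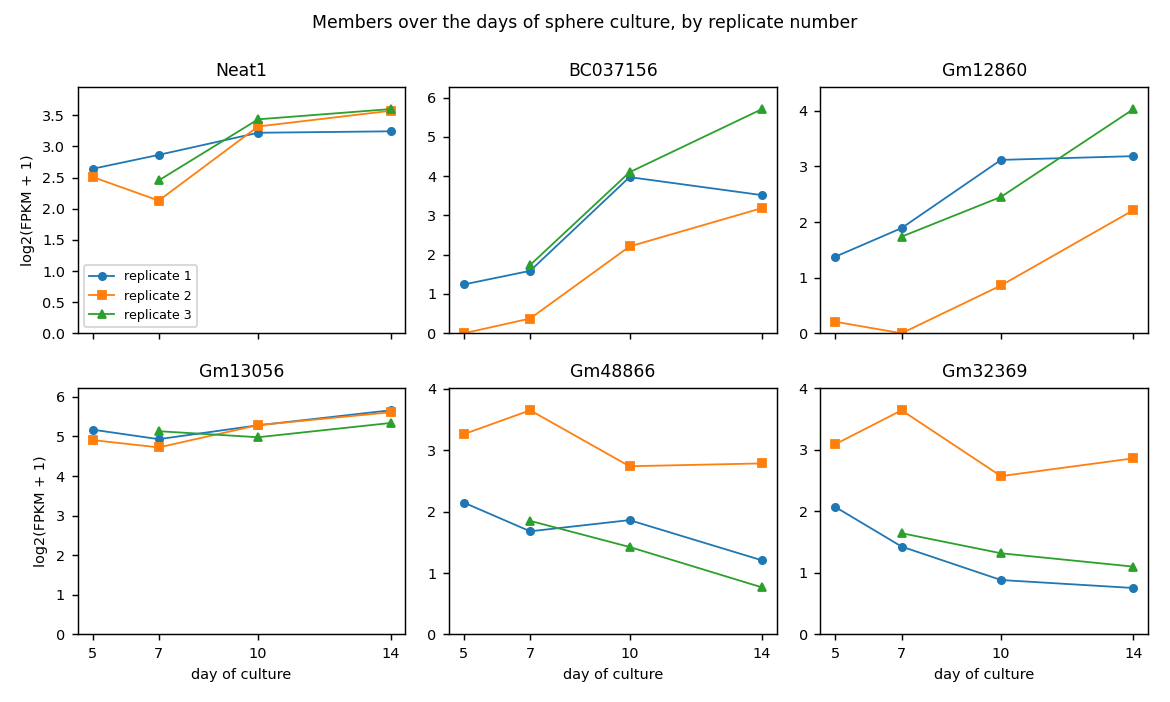
FPKM (y axis) of 6 members at culture days 5, 7, 10 and 14 (x axis), with a line for each replicate number. Neat1 and BC037156 rise, and for Gm48866 and Gm32369 replicate 2 is the highest at each day.

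Day 14 was set directly against day 7, the pair of days that the study compared. None of 78 tested members, of 122 eligible, was called (0.0% of all 15744 genes) by limma, by limma with the replicate block or by limma-voom on the recovered reads, and at an unadjusted p under 0.05 there were 6 members beside 9.89% of all genes. The smallest adjusted p of a member was 0.434. With 3 libraries a day, the differences of BC037156 (2.90), Gm12860 (1.93) and Gm14321 (1.03) upwards and of Gm10076 (-0.87), Gm48866 (-0.81) and 1700072G22Rik (-0.76) downwards did not pass the test. With the replicate block in limma-voom 1 member, BC037156, was called. The groups did not overlap for 8 members (17.4% of all genes).

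By level 11 members had a day mean of at least 5 FPKM that was at least 2 times the lowest day mean (8.8%, beside 12.5% of protein-coding genes). Beside those already described they were Gm10076, Gm26917, Snhg10, Gm28151 and Gm47381. Gm28151 had 3.215 and 1.55 FPKM in the day 5 libraries and 7.551, 6.026 and 11.77 in those of day 14. Gm47381 had 7.807 and 5.904 in the former and 3.429, 2.368 and 3.043 in the latter. In both, the libraries of days 5 and 14 did not overlap.

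The members more often had a single exon block than the other lincRNA genes and more often lay near a protein-coding gene. A single exon block was annotated for 32 (25.6%, against 6.0% of the 4882 other lincRNA genes), with median exon lengths of 970 and 1041 bases. The nearest protein-coding gene lay within 5 kb for 58 (46.4% against 21.9%), and 25 started within 1 kb of a divergent protein-coding gene (20.0% against 5.6%). Of the 58, 21 lay on the same strand (16.8% against 6.5%) and 37 on the opposite one (29.6% against 15.4%). Whether reads of a close neighbour helped a member to reach 5 FPKM was not tested, so position and the choice by level may not be independent. Exons of 15 members overlapped another gene, 12 of them on the opposite strand, and since the kit does not mark strand the reads of such pairs cannot be told apart.

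Of the 58 protein-coding neighbours within 5 kb, 26 were under 1 FPKM in every group, 7 of them listed at 0, and of the other 32 there were 17 with the highest mean in the same group as the member. Adult LG held the highest mean of 53.6% of members and of 28.2% of protein-coding genes at the same level. No share expected without a relation was worked out, and this count was made on the deposited scale alone. In the order adult, E17.5, E19.5, Mansc1 had means of 59.55, 7.821 and 19.12 FPKM, beside Gm38910 with 10.9, 1.346 and 3.944. Treh, which codes for trehalase, had 10.03, 1.603 and 0.6215 beside BC049987 with 335.7, 1.384 and 0.67. Mex3b, an RNA-binding protein gene, had 3.483, 56.86 and 42.91 beside Gm36584 with 1.011, 8.323 and 6.205. These 3 pairs were chosen after their values were seen, and means over 7 groups that share libraries give no test of a relation.

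Members came in 10 clusters of 2 or 3 genes within 200 kb, among them Gm29683 and Gm44948 beside Nr2f2, and Gm27028 and Gm29107 at chr1:23291537-23294075. Gm29107 was listed at 20.31, 16.36 and 10.2 FPKM in adult LG and 0.7203 to 2.204 in embryonic LG, the same order as Gm27028. In 9 of the 10 clusters the members had their highest mean in the same group, which was adult LG in 5, and the exception was Gm13056 (day 14) with Gm13074 (adult LG). Adult LG held the highest mean of 67 of the 125 members, and no expected share was worked out for clusters. Gm14321 and 9230111E07Rik share exon bases, so their reads cannot all be told apart, and Gm38150 lies within the span of Lsmem2. The cluster counts were made on the deposited scale alone.

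In the passage 10 library most members were lower than at passage 2. Of 72 members with a day 7 mean of at least 1 FPKM, 67 were lower (93.1%, beside 83.4% of 5000 protein-coding genes), 54 of them below every day 7 library, and 4 were above every one. The median ratio was 0.39, beside 0.44 for the protein-coding genes, so the members' ratio was near that of other genes. Neat1 was higher, at 24.02 FPKM beside a day 7 mean of 4.717, and Gm26917 at 49.83. Epb41l4aos was at 23.47, Norad at 43.48 and Snhg18 at 2.32. This library has no replicate and its values were made against another gene list, so passage and processing cannot be told apart.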

How the data were processed

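RNA was taken from passage 2 LGSC spheres and gland tissue. Of 24 samples in the labels 21 were used, and a day 5 replicate and passages 6 and 20 were not analysed here. Poly-T captured RNA was made into unstranded libraries with the NEBNext Ultra kit. The submitters' processing notes name CASAVA 1.8, HISAT2 2.0.5, featureCounts 1.5.0-p3 and build NCBIM37, but the exon lengths match GENCODE M21, so positions are those of GENCODE M21 (GRCm38) by gene identifier. The authors deposited 1 table of FPKM per library, with 63862 genes (11226 of them assembled loci, 52747 genes at passage 10). Dividing by the value of 1 read gave whole numbers of reads (tolerance 0.01, judged below 1000 reads) for 92.6% to 93.6% of genes, and these reads give the depth.

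Tests used limma 3.58.1 (R 4.3.3, lmFit and eBayes with trend) on log2(FPKM + 1), for every gene whose mean over the fitted libraries reached 0.5 FPKM. Adjustment followed Benjamini and Hochberg over all of them, and calls were made under 0.05. This scale understates the change of low genes. The 9 gland libraries shared 1 fit, the slope used the 11 sphere libraries, and each other comparison its own 6. The fits were also run on simulated data with independent noise for each library, which cannot test the effect of replicate pairing. Alternatives were a pseudocount of 0.1, no filter, limma-voom on recovered reads, rescaling to them, all 20 libraries in 1 fit, the replicate block and each library left out. In limma-voom the read totals were adjusted by trimmed means of gene ratios, while rescaling used the plain totals. Over the culture days, same-numbered libraries deviated together in 15 of 15 pairs (correlations of 0.26 to 0.719), so these numbers pair the libraries. The main slope and the main test of day 14 against day 7 left this pairing out. The study's count test was not used, since the values are FPKM.

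Named members are those on lists of lincRNA roles or hosts, the 10 most abundant, up to 5 of each class, the 5 largest called changes in each direction (3 where none was called) and the genes beside the level of 5 FPKM. Other members are named by value. Members and lists were chosen with earlier results of these data known. Further software was Python 3.11.15 with pandas 2.3.3, numpy 2.4.6 and matplotlib 3.10.9, and RefSeq sequences are those of GRCm38.p6.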

Additional observations from a re-analysis of the deposited data

Results flagged for a closer look

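The passage 10 library, which enters no comparison, held lincRNAs outside the 125 members at 5 FPKM or more. There were 21, and 17 of them had a day 7 mean under 1/10 of the passage 10 value. Malat1, a nuclear lincRNA among the most abundant in mouse cells, was at 279.2 FPKM and was listed at 0 at day 7. Gm26809 was at 74.8, Gm16907 at 16.61, Gm29630 at 10.78 and Gm26532 at 10.54, each listed at 0 at day 7. The snoRNA host Snhg6 was at 25.28 beside 0.6227, 2610035D17Rik at 20.62 beside 0.1489 and Wincr1 at 18.4 beside 0.1451. These 8 were the ones at 10 FPKM or more. Epcam and Krt8, which epithelial cells use, were likewise listed at 0 in the other 20 libraries, so these zeros are no measure of change with passage. The day 7 values above 0 are no measure of it either, since Krt5 and Krt14 were also far lower at day 7 than at passage 10.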

How the results depend on the processing

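Another rule for the level gave 225 members at 3 FPKM, 43 at 10 and, after rescaling, 90, of which 88 were among the 125. With group medians in place of means the culture-changing class went from 11 to 19, and at 10 FPKM the embryonic class went from 15 to 1 and the sphere-restricted class from 4 to 0. After rescaling the adult class held 7 and the gland-restricted class 23. At E17.5 and E19.5 against adult LG, 38 to 45 and 39 to 44 members were called with each library left out, and by limma-voom 40 and 41, or 35 and 40 with the block. Rescaling turned Tmem250-ps to 0.27 and 0.15, with 3 further reversals given above, and Xist was -0.22 without adult LG replicates 1 and 2.

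Between E19.5 and E17.5, 4 members were called with all 20 libraries in 1 fit, 1 by limma-voom with the block, 1 without the filter, 1 with a pseudocount of 0.1, 0 with the replicate block, 0 after rescaling, 11 without adult LG replicates 1 and 2, and 0 to 7 with 1 library left out. Over culture days, 3 were called with the replicate block, 0 with days 7, 10 and 14 alone, 1 by limma-voom, 11 by limma-voom with the block (10 upwards, 1 downwards), 0 without the filter, 0 without LGSC replicate 1 and 0 to 2 with 1 library left out. For day 14 against day 7, 1 was called with all 20 libraries in 1 fit (Neat1), 1 by limma-voom with the block (BC037156) and 0 with 1 library left out. Day 7 against adult LG gave 19 to 36 with 1 library left out, 11 without adult LG replicates 1 and 2 (7 higher, 4 lower), where the lone sample is assumed to vary like the others, and 24 with the block. The block gave 41 and 42 members at E17.5 and E19.5 against adult LG. The cause of these shifts was not tested. Same-numbered gland libraries did not deviate together (mean correlation -0.009), nor did day 7 and adult ones (0.007). The voom fit with a block, the slope without LGSC replicate 1 and the rescaled list and classes were chosen after seeing the data.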
